A study of Homo sapiens with 8 samples.

Results

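The mitochondrial ribosomal protein genes are the nuclear genes whose symbols read MRPL or MRPS followed by a number and, in a few cases, a letter from A to C. The deposited table held 77 of them among 26830 gene symbols, 48 named for the large subunit (MRPL) and 29 for the small subunit (MRPS). Their values were followed through 8 sequencing libraries from 4 cultures of HEK293T, a human embryonic kidney line, as labelled. All 4 cultures came from a single clone that carries Cas9, so they represent 1 clone, and each received a lentiviral guide RNA. Guides against METTL16, different in each, were carried by 3 cultures (sgMETTL16-1, sgMETTL16-2 and sgMETTL16-3), and a negative control guide was carried by 1 culture (sgNS). Every culture, sgNS included, was kept in blasticidin (10 µg/ml) and puromycin (2 µg/ml) for 1 week or longer and was treated for 5 min before harvest with cycloheximide (100 µg/ml), a drug that stalls ribosomes. Each gave a library of input RNA and a library of ribosome footprints, the 17 to 34 nt fragments that ribosomes protect.

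Mitochondria hold their own ribosome, which translates only the few proteins encoded in mitochondrial DNA, chiefly core subunits of the respiratory chain. Its ribosomal RNAs come from mitochondrial DNA, but all of its proteins are encoded in the nucleus, translated on cytoplasmic ribosomes and imported. Some of these proteins have counterparts in the bacterial ribosome, and others are particular to mitochondria. The names do not always give the place: the proteins of MRPS18A and MRPS30 sit in the large subunit, and MRPS36, listed today as KGD4, is known as a component of the alpha-ketoglutarate dehydrogenase complex. METTL16 is an RNA methyltransferase that acts on U6 small nuclear RNA and on the MAT2A mRNA, and the series asked how it affects translation across the genome.

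The values are TPM, a share of transcripts scaled by transcript length, so they compare genes per length and show shares of a library, not amounts per cell. Read totals were not used here, so depth is unknown. METTL16 itself was at 4.72, 5.25 and 4.16 TPM in the sgMETTL16 inputs (4.71 ± 0.545, SD, n = 3), against 5.31 TPM in the sgNS input. All 3 sgMETTL16 values lay below the sgNS value, but the difference did not pass the test described below (limma adjusted p = 0.482, log2 change -0.68 with SE 0.36), and RNA level does not show whether a guide disrupted the protein. Its footprints were listed at 0 in the 3 sgMETTL16 libraries, against 19.8 TPM in sgNS. The same pattern was listed for 543 of 9297 genes tested in the footprints (5.84%), so it does not set METTL16 apart. The labelled cell type was also checked. Every input held all 12 hepatocyte markers at a minimum of 10 TPM, with ALB, the serum albumin gene, at 1099, 1668 and 477 TPM in the sgMETTL16 inputs and 354 TPM in the sgNS input. Their summed input level ran from 5986 to 9007 TPM in the sgMETTL16 cultures, against 4923 TPM in sgNS. Of 9 HEK293 markers found, 4 were under 1 TPM in every input, and NEFL, NEFM and VIM were listed at 0 there. VIM nevertheless had footprints, at 85.2, 78.7 and 43.3 TPM in sgMETTL16 and 188 TPM in sgNS. The other 5 HEK293 markers were at 1 TPM or more, and the 9 summed to 1178, 1327 and 1234 TPM in the sgMETTL16 inputs, against 687 TPM in the sgNS input. The level of the hepatocyte markers goes against the labelled kidney line, so the cells are called cultures in what follows. The part of the marker difference in any result on the ribosomal protein genes was not tested.

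Input RNA of the 77 genes spanned a 77.8-fold range. The mean over the 4 inputs ran from 1.55 TPM for MRPL22 to 120.4 TPM for MRPL41, with a median of 12.2 TPM. Levels were under 5 TPM for 15 genes, from 5 to 20 TPM for 32 and 20 TPM or more for 30. The median was 13.5 TPM for the large subunit genes and 8.79 TPM for the small subunit genes. As background, most proteins of the ribosome are present in equal numbers in the particle.

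MRPL41, which encodes a mitochondria-specific protein of the large subunit, had 118, 121 and 116 TPM in the sgMETTL16 inputs, against 126 TPM in sgNS. MRPL12, which encodes the stalk protein that contacts translation factors, had 128, 115 and 114 TPM in the sgMETTL16 inputs, against 118 TPM in sgNS. These top levels could not be told apart, since the ranges of the 2 genes overlapped. MRPS24, the highest small subunit gene, followed at 81.9, 90.8 and 79.2 TPM in sgMETTL16, against 87.8 TPM in sgNS. MRPL37 had 96.3, 80.7 and 68.2 TPM in sgMETTL16 and 77.1 TPM in sgNS, and MRPL14, the counterpart of a bacterial large subunit protein, had 77.0, 69.7 and 64.7 TPM in sgMETTL16 and 79.2 TPM in sgNS. MRPS24, MRPL37 and MRPL14 overlapped one another across the libraries but lay below MRPL41 and MRPL12 in every library.

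At the low end stood genes of both subunits, and MRPL22 and MRPL1 encode counterparts of bacterial large subunit proteins. MRPL22 had 1.40, 2.89 and 0.83 TPM in the sgMETTL16 inputs, against 1.07 TPM in sgNS. MRPL1 had 2.24, 4.31 and 1.19 TPM in sgMETTL16, against 1.06 TPM in sgNS. MRPS31 had 2.59, 4.21 and 1.54 TPM in sgMETTL16, against 1.42 TPM in sgNS. In each of these, sgMETTL16-2 was the highest culture. MRPS14 had 3.43, 4.13 and 1.89 TPM in sgMETTL16 and 2.34 TPM in sgNS, and MRPL35 had 3.19, 5.37 and 1.42 TPM in sgMETTL16 and 1.92 TPM in sgNS, so that in both genes the sgNS value lay inside the sgMETTL16 range.

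The order of levels recurred from culture to culture. Across the 77 genes, which are not independent replicates and share a library, Pearson's r between 2 inputs ran from 0.939 (sgMETTL16-2 with sgNS) to 0.983 (sgMETTL16-1 with sgMETTL16-3). Genes that cover a longer stretch of the genome had lower levels: the correlation of mean input with the length from the first to the last base of the gene was r = -0.50 (rho = -0.49, 77 genes). MRPS28 and MRPS27 are the longest genes, with 111543 and 100838 bases and mean inputs of 6.60 and 13.98 TPM. MRPL41 and MRPL53 are the shortest, with 677 and 699 bases and mean inputs of 120.4 and 21.5 TPM.

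**Figure D1:**
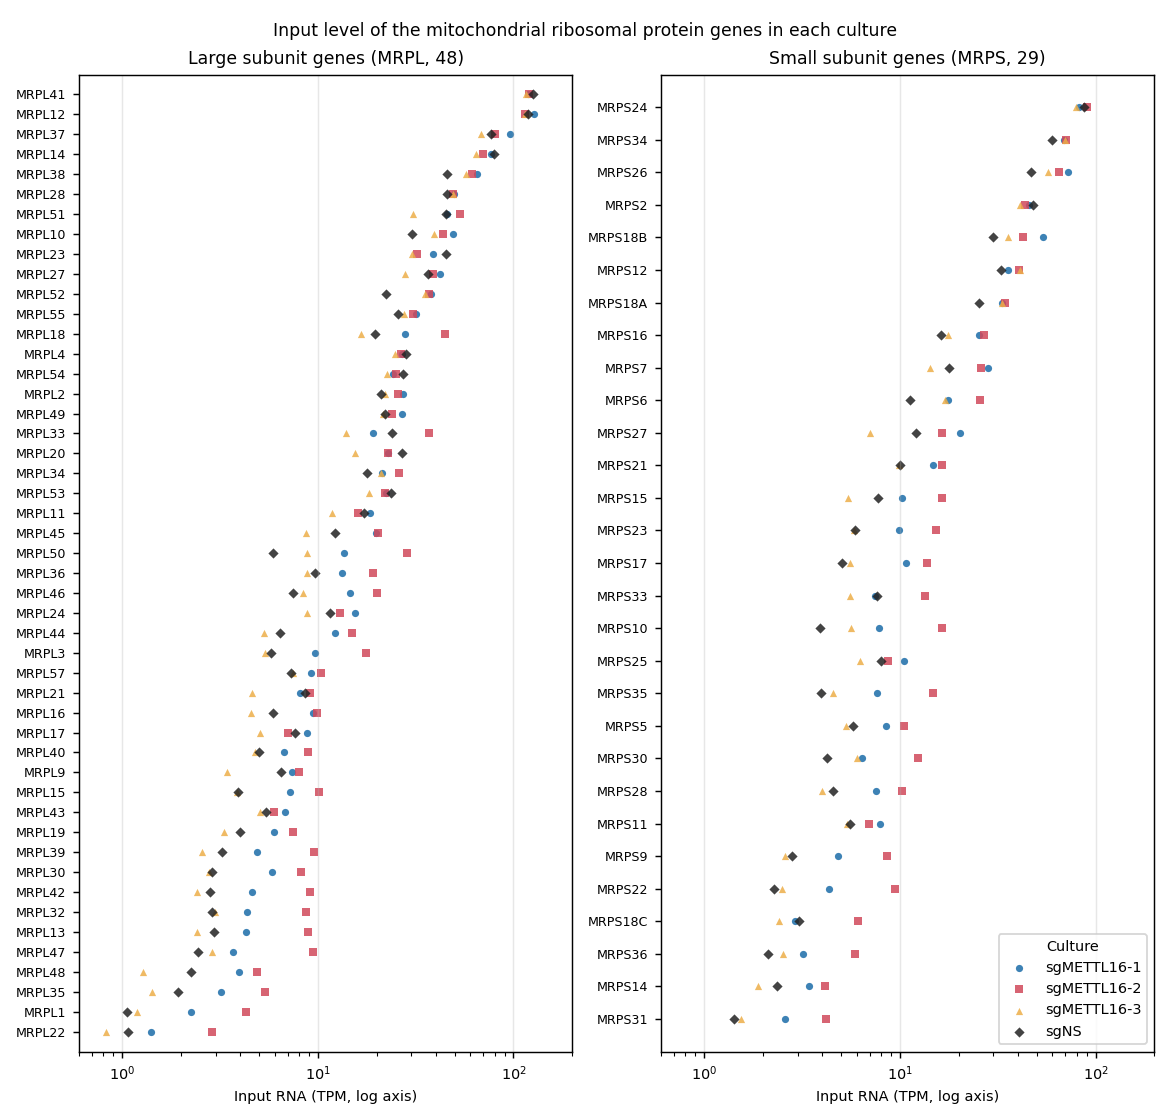
Input TPM (log axis) of each of the 48 MRPL genes and 29 MRPS genes, ordered by mean level, with 1 point per culture. The genes run from 1.55 TPM (MRPL22) to 120.4 TPM (MRPL41), and among the low genes the sgMETTL16-2 points lie farthest to the right.

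The paralogs MRPS18A, MRPS18B and MRPS18C, all related to 1 bacterial small subunit protein, differed in level. MRPS18B had 53.6, 42.4 and 35.9 TPM in the sgMETTL16 inputs, against 29.8 TPM in sgNS. MRPS18A had 33.1, 34.5 and 33.2 TPM in sgMETTL16, against 25.2 TPM in sgNS. MRPS18C had 2.89, 6.11 and 2.40 TPM in sgMETTL16, against 3.04 TPM in sgNS. MRPS18C was below the other 2 paralogs in all 4 cultures, while MRPS18B was above MRPS18A in all 4. After centring, the log2 changes of MRPS18A, MRPS18B and MRPS18C were -0.13, -0.0027 and -0.36 (SE 0.39, 0.40 and 0.35), and none passed the test (limma adjusted p = 0.972, 0.998 and 0.847).

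The start regions of the genes were compared through RefSeq promoter windows of 300 bases (GRCh38.p14, 250 bases before to 50 after the start), which were found for 69 of the 77 genes. The motifs searched on both strands were CCGGAAG, bound by factors of the ETS family, ATGGCGGC, bound by YY1, GCATGCGC, bound by NRF1, a regulator of nuclear genes for mitochondria, and TATAAA, the TATA box. In the windows of these genes no match of 1 motif overlapped a match of another, but in MRPL17 a GCATGCGC match at -81 overlapped 1 on the other strand at -79. CCGGAAG was present in 28 of 69 windows (40.6%), against 20.7% of the 8230 windows of protein-coding genes tested in the input and 10.7% of all 27305 windows. ATGGCGGC was present in 18 windows (26.1%), against 7.23% and 3.21% in the same comparison sets. GCATGCGC was present in 6 windows (8.70%), against 5.97% and 3.27%. TATAAA was present in 3 windows (4.35%), against 5.33% and 11.95%. An opposite gene start within 1000 bases upstream was listed for 22 genes (31.9%), against 24.6% and 16.6%. A match is a description of letters and not a bound site.

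The place of the matches differed by motif. Of 19 ATGGCGGC matches in 18 genes, 16 lay after the start and 16 ran in the direction of the gene, with a median first base at 18, where 1 is the start itself. The motif begins with ATG, the letters of a start codon. Matches after the gene start may therefore overlap the start of the coding sequence, which was not tested. Of 37 CCGGAAG matches in 28 genes, 6 lay after the start, and the median first base was -22. The windows below run from 120 bases before to 30 bases after the start, 5′ to 3′ on the strand of the gene, with matches in capitals. They show MRPS18A and MRPS10, which carry both CCGGAAG before the start and ATGGCGGC at base 13 after it, MRPL38 with ATGGCGGC at base 10, MRPS18B with GCATGCGC, MRPL47 with CCGGAAG at -39, MRPL51 with 2 CCGGAAG matches, the first of them on the opposite strand, and MRPL41, the gene with the highest input, with no match. In MRPS18B an ATGGCGGC match that begins at base 27 runs past the end of the window shown. MRPL38 also has CCGGAAG at -208 and MRPL47 has ATGGCGGC at -185, both on the opposite strand and before the windows shown.
MRPS18A (chr6:43687762-43687911, minus strand): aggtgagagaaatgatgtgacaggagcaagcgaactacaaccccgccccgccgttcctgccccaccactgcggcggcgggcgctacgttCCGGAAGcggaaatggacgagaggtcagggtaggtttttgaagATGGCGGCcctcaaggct
MRPS10 (chr6:42217832-42217981, minus strand): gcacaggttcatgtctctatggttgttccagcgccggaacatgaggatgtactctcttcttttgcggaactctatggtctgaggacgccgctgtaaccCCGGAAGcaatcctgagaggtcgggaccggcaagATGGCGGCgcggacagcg
MRPL38 (chr17:75904855-75905004, minus strand): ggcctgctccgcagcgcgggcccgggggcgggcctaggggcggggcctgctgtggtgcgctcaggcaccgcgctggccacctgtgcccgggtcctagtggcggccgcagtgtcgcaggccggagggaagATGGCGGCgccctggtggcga
MRPS18B (chr6:30617720-30617869, plus strand): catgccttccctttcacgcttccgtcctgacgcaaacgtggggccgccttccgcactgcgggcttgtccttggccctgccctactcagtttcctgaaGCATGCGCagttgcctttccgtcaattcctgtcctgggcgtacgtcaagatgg
MRPL47 (chr3:179604609-179604758, minus strand): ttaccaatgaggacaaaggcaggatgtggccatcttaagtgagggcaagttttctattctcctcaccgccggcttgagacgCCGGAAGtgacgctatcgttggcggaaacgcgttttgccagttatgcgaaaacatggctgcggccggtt
MRPL51 (chr12:6493233-6493382, minus strand): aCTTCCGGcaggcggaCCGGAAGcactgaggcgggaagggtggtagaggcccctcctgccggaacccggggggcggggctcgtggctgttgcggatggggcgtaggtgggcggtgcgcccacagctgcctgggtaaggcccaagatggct
MRPL41 (chr9:137551759-137551908, plus strand): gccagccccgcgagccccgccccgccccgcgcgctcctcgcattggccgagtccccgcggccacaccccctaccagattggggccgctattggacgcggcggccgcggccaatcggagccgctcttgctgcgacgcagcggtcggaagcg

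Genes with ATGGCGGC had a median input of 8.06 TPM (18 genes), against 15.3 TPM for those without it (51 genes), and a median log2 input change of -0.06, against -0.29 for those without it. Genes with CCGGAAG had a median input of 17.1 TPM (28 genes), against 12.2 TPM without it (41 genes), and a median log2 change of -0.19, against -0.23 without it. These are descriptions without a test.

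The first comparison asked whether the input level of these genes differed between sgMETTL16 and sgNS cultures. No gene of the 77 passed the test. The genes as a group sat slightly lower in the sgMETTL16 inputs than the typical gene, with a median log2 change of -0.21, against -0.06 over all 10967 tested genes. Large subunit genes had a median of -0.22, and small subunit genes had a median of -0.13. This direction is not firm: relative to the median tested gene the 77 genes lay at -0.14, at -0.04 without sgMETTL16-3, and at 0.14 when no filter on low genes was used. Changes were fitted with limma on log2(TPM + 1), each library centred on its median gene, with p-values adjusted by Benjamini-Hochberg over all tested genes and a threshold of 0.05. A change on this scale understates that of low genes. Across all genes 310 were called (2.83%), 173 higher (1.58%) and 137 lower (1.25%) in sgMETTL16, and 0 of 77 ribosomal protein genes were called. On TPM as deposited 23 genes were called, 22 higher and 1 lower in sgMETTL16, and the number of genes called was 110 without sgMETTL16-1 and 664 without sgMETTL16-3. At an unadjusted p under 0.05, 3 of the 77 stood out, all lower in sgMETTL16, against 11.2% of all genes. With 1 sgNS culture, its spread was taken from the sgMETTL16 cultures, and whether a difference comes from the guides or from that 1 culture cannot be told apart. Fewer cells of a type and less RNA per cell cannot be told apart in such bulk samples.

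For part of the genes the 3 cultures shared a sign. After centring, 36 of 77 (46.8%) were lower than sgNS in all 3 sgMETTL16 cultures, against 34.2% of all tested genes. Higher in all 3 were 2 of 77 (2.6%), MRPL50 and MRPS10, against 23.4% of all tested genes. The direction depends on the centring: on TPM as deposited, where the median gene shifted by 0.46 (log2), the median of the 77 was 0.32. The distance between the 77 and the median gene was -0.14 on both scales. Centring shifts every gene of a library equally, so this value could not differ and is no second result.

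The genes with the lowest changes belonged mostly to the large subunit. MRPL23 had 38.7, 32.1 and 30.4 TPM in the sgMETTL16 inputs (33.7 ± 4.38, SD, n = 3), against 45.3 TPM in sgNS. The groups did not overlap, and MRPL23 had a fitted log2 difference of -0.95 (SE 0.39), which did not pass (limma adjusted p = 0.250). Its antisense gene MRPL23-AS1 was at 3.72, 2.33 and 2.49 TPM in sgMETTL16 and 3.32 TPM in sgNS. Use of strand in the counting is not given in the sources used here, so reads of MRPL23 and its antisense gene may not be told apart. MRPL20 had 22.9, 22.9 and 15.5 TPM in sgMETTL16 (20.4 ± 4.26, SD, n = 3), against 27.0 TPM in sgNS, also without overlap, and a log2 change of -0.94 (SE 0.39, limma adjusted p = 0.243). MRPL23 and MRPL20 were called when sgMETTL16-3 was left out, with limma adjusted p = 0.00962 and 0.0331. That fit called 664 of 11148 tested genes, 391 of them lower in sgMETTL16, and 2 of the 77 members, so the calls do not set these genes apart.

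MRPL21 had 8.13, 9.10 and 4.58 TPM in the sgMETTL16 inputs, against 8.62 TPM in sgNS, so its values overlapped before centring, and its log2 change was -0.79 (SE 0.37, limma adjusted p = 0.365). MRPL23, MRPL20 and MRPL21 all encode counterparts of bacterial large subunit proteins. MRPL54 had 24.3, 25.1 and 22.5 TPM in sgMETTL16, against 27.3 TPM in sgNS. MRPL53 had 22.2, 22.02 and 18.2 TPM in sgMETTL16, against 23.6 TPM in sgNS. Both encode mitochondria-specific proteins, both had all 3 sgMETTL16 values below sgNS, and both had a log2 change of -0.71 (SE 0.39 each). MRPL14, with the values given above, had -0.70 (SE 0.41). MRPL11, whose protein lies at the base of the stalk, had 18.4, 16.1 and 11.8 TPM in sgMETTL16 and 17.1 TPM in sgNS, with a log2 change of -0.69 (SE 0.38). MRPS2 was the lowest small subunit gene, at 45.5, 43.8 and 40.9 TPM in sgMETTL16, against 47.98 TPM in sgNS, with a log2 change of -0.67 (SE 0.40). For MRPL54, MRPL53, MRPL14, MRPL11 and MRPS2 the limma adjusted p ran from 0.505 (MRPL54) to 0.574 (MRPS2).

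The highest changes were mostly in genes named for the small subunit. MRPL50, which encodes a mitochondria-specific large subunit protein, had 13.6, 28.4 and 8.76 TPM in the sgMETTL16 inputs (16.9 ± 10.2, SD, n = 3), against 5.90 TPM in sgNS. All 3 values were above sgNS, with sgMETTL16-2 the highest, and the fitted log2 difference was 0.70 (SE 0.38, limma adjusted p = 0.501). MRPS10 had 7.78, 16.3 and 5.61 TPM in sgMETTL16 (9.90 ± 5.66, SD, n = 3), against 3.89 TPM in sgNS, with the same order of cultures and a log2 change of 0.51 (SE 0.37, limma adjusted p = 0.720). Its start region is among those shown above.

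MRPS35 had 7.59, 14.7 and 4.55 TPM in the sgMETTL16 inputs and 3.96 TPM in sgNS, with a log2 change of 0.34 (SE 0.37). MRPS22, which encodes a mitochondria-specific protein, had 4.35, 9.43 and 2.49 TPM in sgMETTL16 and 2.26 TPM in sgNS, with a log2 change of 0.30 (SE 0.35). MRPS17 had 10.7, 13.8 and 5.54 TPM in sgMETTL16 and 5.06 TPM in sgNS, with a log2 change of 0.26 (SE 0.37). In these 3 genes every sgMETTL16 value exceeded sgNS as deposited, but after centring sgMETTL16-3 fell just below it. MRPL46 had 14.6, 20.02 and 8.35 TPM in sgMETTL16, against 7.46 TPM in sgNS, with a log2 change of 0.25 (SE 0.38). Its head-to-head neighbour MRPS11 had 7.92, 6.95 and 5.39 TPM in sgMETTL16, against 5.57 TPM in sgNS, with a log2 change of -0.30 (SE 0.37). On chromosome 15 (GRCh38.p14) MRPL46 starts on the minus strand at base 88467388 and MRPS11 on the plus strand at base 88467708, so they share a start region, and their changes had opposite signs, neither of them past the test. MRPS30 had 6.43, 12.3 and 6.04 TPM in sgMETTL16 and 4.22 TPM in sgNS, and MRPS6 had 17.5, 25.7 and 17.1 TPM in sgMETTL16 and 11.2 TPM in sgNS, with log2 changes of 0.23 each (SE 0.37 and 0.38). For the 6 genes from MRPS35 to MRPS6 the limma adjusted p ran from 0.869 (MRPS35) to 0.936 (MRPS6).

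The change was related to level in sgMETTL16-2 and differed between cultures. In sgMETTL16-2, 14 of the 15 genes under 5 TPM were above sgNS after centring, with a median log2 change of 0.47, while 1 of the 30 genes at 20 TPM or more was, with a median of -0.55. Over all tested genes the medians of the same bands in sgMETTL16-2 were -0.04 and -0.32, with 47.8% and 27.8% of genes above sgNS. In sgMETTL16-1 the medians of the ribosomal protein genes were -0.11 under 5 TPM and -0.43 at 20 TPM or more, and in sgMETTL16-3 both were -0.25. Spearman's rho of the change with mean level was -0.33, -0.62 and 0.10 in sgMETTL16-1, -2 and -3 over the 77 genes, against -0.00, -0.13 and 0.06 over all tested genes. The 3 changes share the sgNS library, and the mean level includes it.

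**Figure D2:**
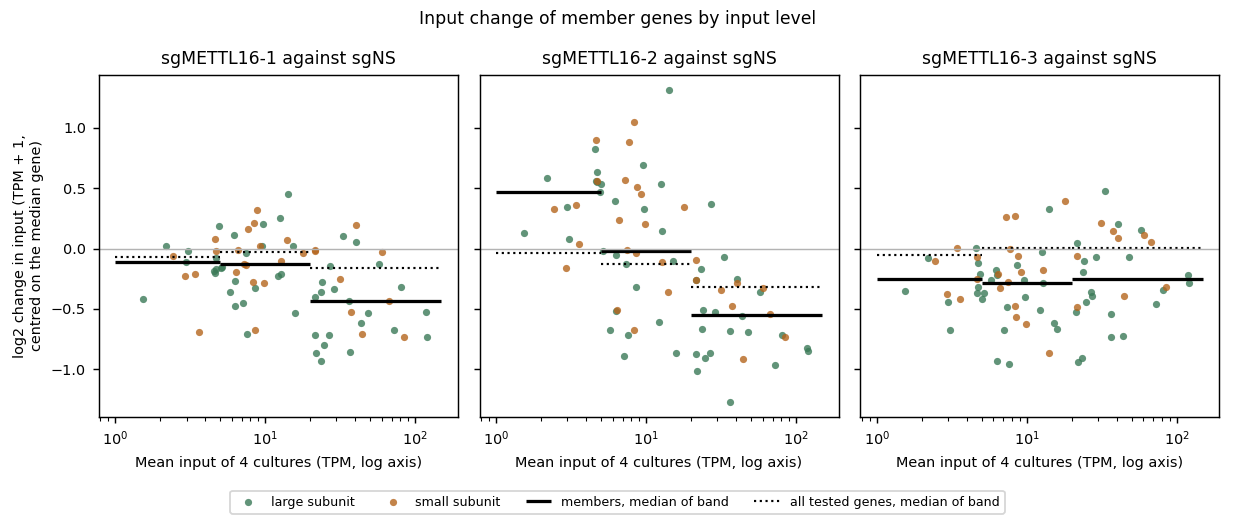
Log2 change in input of each gene in each sgMETTL16 culture against sgNS (vertical) by mean input TPM (log axis), with solid lines for the median of the 77 genes and dotted lines for that of all tested genes in bands of under 5, 5 to 20 and 20 TPM or more. In sgMETTL16-2 the solid line falls from 0.47 in the lowest band to -0.55 in the highest, and in sgMETTL16-3 it lies at -0.25 in both.

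Summed over the 77 genes, input TPM was 1836, 1961 and 1462 in the sgMETTL16 cultures (1753 ± 259, SD, n = 3), against 1536 in sgNS. As a share of the TPM of protein-coding genes the sum was 0.722%, 0.744% and 0.728% in sgMETTL16 (0.731% ± 0.0117, SD, n = 3), against 0.758% in sgNS. The summed TPM was therefore higher in sgMETTL16 on average and its protein-coding share lower, so the direction depends on the denominator. Protein-coding genes held 25.4%, 26.3% and 20.1% of input TPM in sgMETTL16, against 20.3% in sgNS. The large subunit genes held 0.483% ± 0.0037 in sgMETTL16 (SD, n = 3), against 0.524% in sgNS. The small subunit genes held 0.248% ± 0.0082 in sgMETTL16 (SD, n = 3), against 0.234% in sgNS. For comparison, the cytoplasmic ribosomal protein genes held 8.65% ± 0.573 in sgMETTL16 (SD, n = 3), against 11.5% in sgNS, and the nuclear genes of the respiratory chain held 1.48% ± 0.0298 in sgMETTL16 (SD, n = 3), against 1.72% in sgNS. Sums were not tested.

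**Figure D3:**
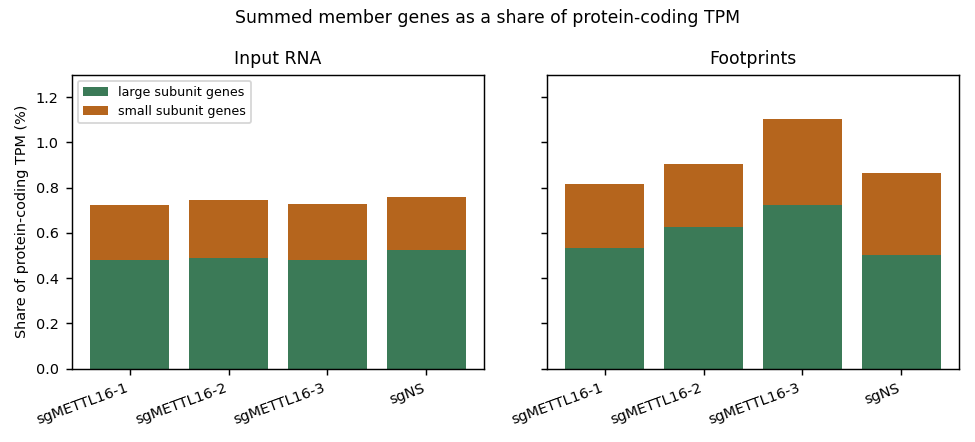
Summed TPM of the large (green) and small (brown) subunit genes as a share of protein-coding TPM in each culture, for input RNA and footprints. Input shares lie between 0.722% and 0.758%, and footprint shares between 0.818% (sgMETTL16-1) and 1.10% (sgMETTL16-3). In the sgMETTL16-3 footprints protein-coding genes held 11.9% of all TPM, the lowest of the libraries.

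Genes that work with the mitochondrial ribosome were read in the same fit. Of 6 mitochondrial ribosome proteins with other names, 0 were called, and their median log2 change was -0.18. DAP3, which encodes a GTP-binding small subunit protein, had 15.0, 20.3 and 7.90 TPM in the sgMETTL16 inputs, against 6.72 TPM in sgNS (log2 change 0.38, SE 0.38, limma adjusted p = 0.851). CHCHD1, another small subunit protein gene, had 6.72, 9.35 and 4.18 TPM in sgMETTL16, against 9.20 TPM in sgNS (log2 change -0.98, SE 0.37, limma adjusted p = 0.165), and was called without sgMETTL16-2 (limma adjusted p = 0.0489). None was called among 22 tested assembly factors (median -0.09), 15 translation factors (median -0.09), 16 mitochondrial tRNA synthetases (median -0.05) and 17 genes of mitochondrial DNA and RNA handling (median 0.10). SARS2, the mitochondrial seryl-tRNA synthetase gene, starts head to head with MRPS12. It had 10.3, 9 and 8.42 TPM in sgMETTL16, against 11.2 TPM in sgNS (log2 change -0.79, SE 0.37, limma adjusted p = 0.379). MRPS12, the gene for a protein of the decoding centre, had 35.6, 40.8 and 41.2 TPM in sgMETTL16, against 32.9 TPM in sgNS (log2 change -0.29, SE 0.39, limma adjusted p = 0.915). IARS2, the isoleucyl-tRNA synthetase gene, had 13.7, 19.2 and 7.08 TPM in sgMETTL16, against 4.97 TPM in sgNS (log2 change 0.64, SE 0.37, limma adjusted p = 0.573). MTIF2, the gene of the initiation factor that brings the first tRNA to the small subunit, had 5.97, 13.2 and 4.46 TPM in sgMETTL16, against 2.94 TPM in sgNS (log2 change 0.52, SE 0.36, limma adjusted p = 0.699). YBEY, an assembly factor gene, had 2.24, 1.64 and 0.98 TPM in sgMETTL16, against 1.87 TPM in sgNS (log2 change -0.69, SE 0.31, limma adjusted p = 0.311). LRPPRC, which stabilises mitochondrial mRNAs, had 14.3, 22.8 and 7.92 TPM in sgMETTL16, against 5.83 TPM in sgNS (log2 change 0.59, SE 0.38, limma adjusted p = 0.633).

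Among 76 respiratory chain genes, 2 fell in the sgMETTL16 inputs (1.25% of all genes were called lower) and 0 rose, with a median of -0.46. Both that fell, NDUFB8 and NDUFS6, encode subunits of complex I. NDUFB8 had 35.0, 28.6 and 22.2 TPM in sgMETTL16, against 55.0 TPM in sgNS (log2 change -1.47, SE 0.39, limma adjusted p = 0.00927). NDUFS6 had 48.3, 44.0 and 35.2 TPM in sgMETTL16, against 79.3 TPM in sgNS (log2 change -1.42, SE 0.40, limma adjusted p = 0.0164). Among 79 tested cytoplasmic ribosomal protein genes, 1 fell, RPS27, with 205, 230.0 and 132 TPM in sgMETTL16, against 357 TPM in sgNS (log2 change -1.48, SE 0.43, limma adjusted p = 0.0245). The list had a median of -0.47. The calls of NDUFB8, NDUFS6 and RPS27 were lost on TPM as deposited (limma adjusted p = 0.285, 0.243 and 0.335) and without sgMETTL16-1 (0.373, 0.535 and 0.690). Those of NDUFS6 and RPS27 were also lost with protein-coding genes only (0.0534 and 0.0909), and that of NDUFS6 without a filter (0.0640). The medians of these lists were further below the median of all genes than that of the mitochondrial ribosomal protein genes, a difference that was not tested.

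Footprints of the mitochondrial ribosomal protein genes were sparse. Footprints above 0 were listed for 51, 59 and 34 of the 77 genes in sgMETTL16-1, -2 and -3, and for 38 in sgNS. All 4 libraries held footprints of 14 genes (18.2%, against 17.7% of 9917 protein-coding genes with a mean input of 1 TPM or more). The other genes had footprints in 3 libraries (20 genes), 2 libraries (27), 1 library (12) or none (4). Those listed at 0 throughout were MRPL48, MRPL55, MRPS28 and MRPS33, although MRPL55 had 31.8, 30.8 and 27.6 TPM in the sgMETTL16 inputs and 25.7 TPM in the sgNS input. A listed 0 does not show that a gene was not translated.

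Detection was set beside input level, without a test, in bands of 15, 32 and 30 genes. In sgMETTL16-1 footprints were listed for 66.7% of members under 5 TPM of input, 65.6% of those from 5 to 20 TPM and 66.7% of those at 20 TPM or more. Protein-coding genes had 37.9%, 52.3% and 72.9% in the same bands. In sgMETTL16-2 the shares were 73.3%, 84.4% and 70.0% for members, against 44.4%, 62.1% and 81.0% for protein-coding genes. In sgMETTL16-3 they were 33.3%, 46.9% and 46.7% for members, against 25.7%, 37.2% and 57.6% for protein-coding genes. In sgNS the shares were 60.0%, 53.1% and 40.0% for members, against 29.02%, 40.7% and 59.5% for protein-coding genes. The share of protein-coding genes climbed with each band in all 4 cultures, while that of the members had no common course. Across the 77 genes the correlation of footprint with input TPM was r = 0.10, 0.11 and 0.11 in the sgMETTL16 cultures and -0.13 in sgNS, and between footprint libraries it ran from 0.03 to 0.34. Correlations this weak in sparse values are no finding.

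**Figure D4:**
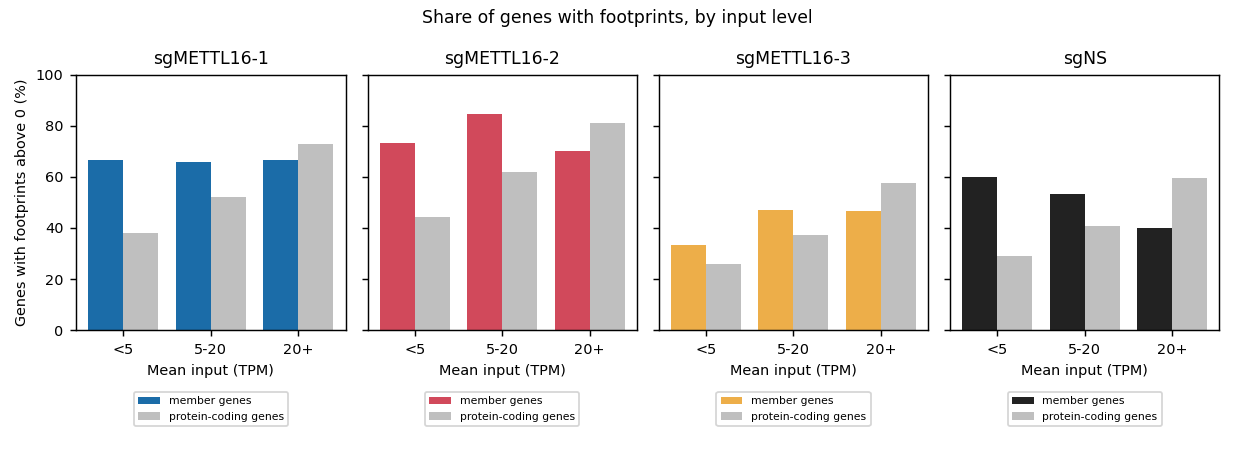
Share of genes (%) with footprints above 0, by band of mean input TPM, for the 77 mitochondrial ribosomal protein genes (coloured bars) and protein-coding genes (grey bars) in each culture. Grey bars climb with input in all 4 cultures, while the coloured bars have no common course: level in sgMETTL16-1, highest in the middle band in sgMETTL16-2 (84.4%), higher in both upper bands than in the lowest in sgMETTL16-3 (46.9% and 46.7%, against 33.3%), and lower with each band in sgNS.

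Within a pair of footprint libraries 1 ratio recurred, and further members lay at that ratio multiplied or divided by 2 or 3. Among genes above 0 in a pair of libraries, the ratio of sgNS to sgMETTL16-1 was 1.89 (within 0.02 in the natural log) for 13 of 26 members (50%), against 28.5% of all genes. For sgNS to sgMETTL16-2 the recurring ratio was 2.73, held by 7 of 35 members (20%), against 23.6% of all genes. For sgNS to sgMETTL16-3 it was 2.01, held by 7 of 18 members (38.9%), against 33.7% of all genes. In the order of these 3 pairs, 7, 13 and 7 members lay at the ratio multiplied or divided by 2. At the ratio multiplied or divided by 3 lay 1, 6 and 0 members. How often all genes did so was not counted, and the cause was not tested. MRPS5 held the recurring ratio of sgNS to sgMETTL16-1 and to sgMETTL16-3, but not that to sgMETTL16-2, with 8.82, 12.2 and 8.33 TPM of footprints in sgMETTL16, against 16.7 TPM in sgNS. MRPS15 had 32.0, 44.4 and 30.3 TPM in sgMETTL16, against 60.7 TPM in sgNS, and so repeated the proportions of MRPS5. MRPL52 had 54.8, 76.0 and 51.9 TPM in sgMETTL16, against 103.9 TPM in sgNS, again in nearly those proportions.

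Among the other genes with footprints in all 4 libraries, MRPL18, whose protein is a counterpart of the bacterial binder of 5S ribosomal RNA, had 35.5, 123 and 134 TPM in the sgMETTL16 footprints, against 67.3 TPM in sgNS. MRPL33 had 61.5, 85.2 and 117 TPM in sgMETTL16, against 117 TPM in sgNS. MRPL21 had 90.0, 31.2 and 42.7 TPM in sgMETTL16, against 85.4 TPM in sgNS. In all 3 the sgNS value lay within the range of the sgMETTL16 values. MRPL57 had 79.7, 110.5 and 43.0 TPM in sgMETTL16, against 43.1 TPM in sgNS, and MRPS9 had 104.7, 101.6 and 39.6 TPM in sgMETTL16, against 39.7 TPM in sgNS. In TPM as listed, sgMETTL16-1 and sgMETTL16-2 were higher than sgNS in both genes, and sgMETTL16-3 was level with it. Once the libraries were scaled for the footprint test described below, sgMETTL16-3 was also above sgNS, with a log2 change of 1.04 in each gene. MRPL42 had 38.4, 40.0 and 9.07 TPM in sgMETTL16 and 18.2 TPM in sgNS.

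MRPS18B had 39.8, 41.4 and 94.0 TPM in the sgMETTL16 footprints, against 37.7 TPM in sgNS, all 3 above sgNS. MRPS2 had 40.4, 14 and 19.1 TPM in sgMETTL16, against 76.5 TPM in sgNS, and MRPL17 had 12.8, 8.87 and 24.2 TPM in sgMETTL16, against 72.7 TPM in sgNS, all below it in both genes. MRPS10 had 28.3, 9.82 and 26.8 TPM in sgMETTL16 and 26.8 TPM in sgNS. MRPS23 had 20.5, 170.2 and 38.7 TPM in sgMETTL16 and 77.5 TPM in sgNS. No gene of these 14 passed the footprint test, in which the smallest limma adjusted p among them was 0.403, for MRPS9.

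**Figure D5:**
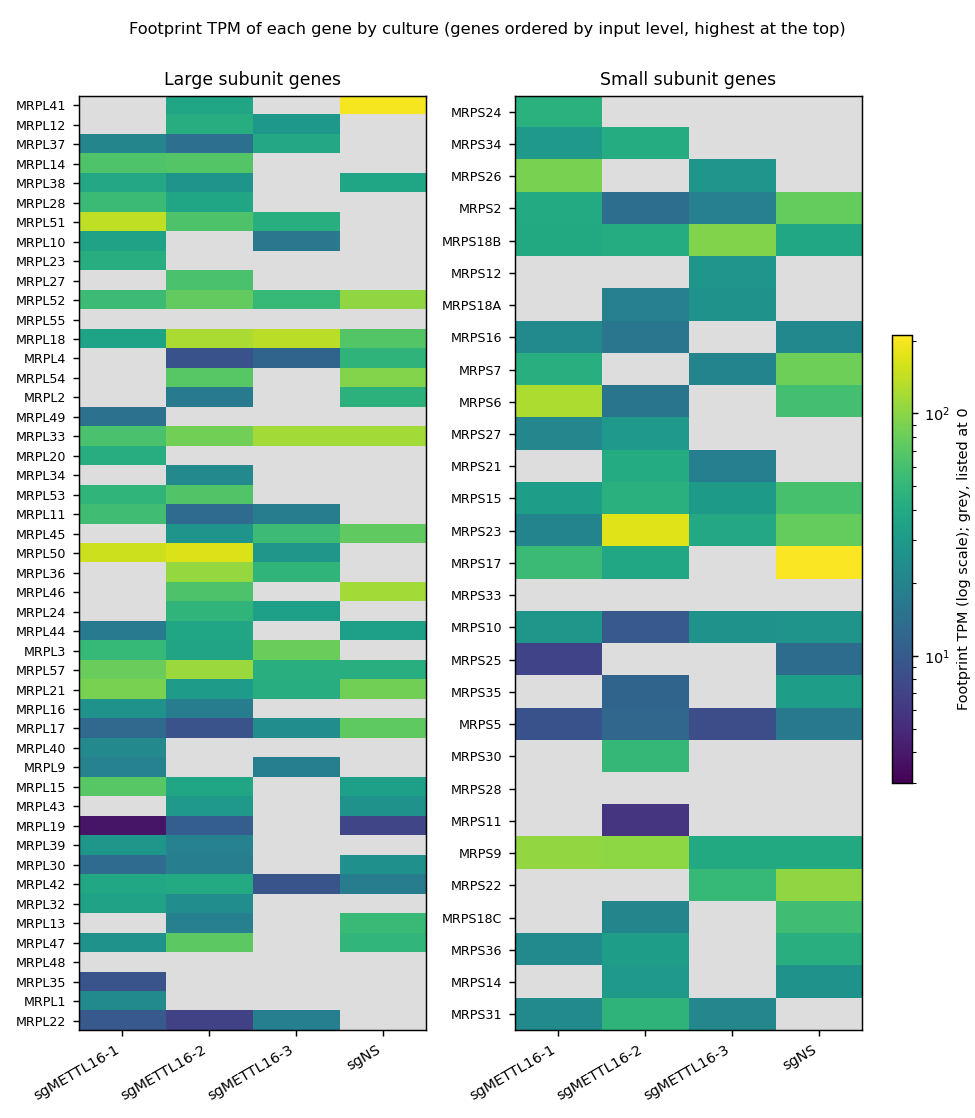
Footprint TPM (log colour scale) of each gene in each culture, genes ordered by input level with the highest at the top, and grey where listed at 0. Grey cells occur along the whole height of both panels, and 14 of 77 genes have no grey cell.

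The footprint comparison asked which genes had more or fewer footprints in sgMETTL16 than in sgNS. Of the 77 genes, 73 passed the filter of a mean of 1 TPM, and 1 was called, MRPL51, which encodes a mitochondria-specific large subunit protein. Over all 9297 tested genes 608 were called (6.54%), 65 of them higher in sgMETTL16 (0.699%), and 607 of those were listed at 0 in sgNS or in all 3 sgMETTL16 libraries. The 73 had a median log2 change of 1.04, against 0.89 over all tested genes. In each sgMETTL16 culture taken alone the median was 0, both for the 73 and for all tested genes. With a pseudocount of 0.1 the medians were 1.29 for the 73 and 1.81 for all genes. With median centring they were -1.39 and -1.28, so neither the sign nor the order is firm. MRPL51 had 139, 64.2 and 43.9 TPM of footprints in sgMETTL16, against a listed 0 in sgNS (limma adjusted p = 0.0455), so no fold is given. Its input was 46.0, 53.2 and 30.6 TPM in sgMETTL16, against 45.3 TPM in sgNS (log2 change -0.63, SE 0.40, limma adjusted p = 0.622). The MRPL51 footprint call was lost on leaving out sgMETTL16-1, sgMETTL16-2 or sgMETTL16-3 (limma adjusted p = 0.176, 0.164 and 0.179), on TPM as deposited (0.105) and with median centring (0.412). Leaving out any 1 of the 3 cultures left 0 genes called.

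A listed 0 in sgNS with footprints in all 3 sgMETTL16 libraries was seen for 7 of the 73 tested members (9.59%), against 6.65% of all tested genes. These were MRPL3, MRPL11, MRPL22, MRPL37, MRPL50, MRPL51 and MRPS31. The opposite, footprints in sgNS with 0 in all 3 sgMETTL16 libraries, was seen for 0 members, against 5.84% of all tested genes. MRPL50 had 151, 167 and 28.6 TPM in the sgMETTL16 footprints (limma adjusted p = 0.110 against the listed 0 of sgNS). MRPS31 had 22.9, 47.5 and 21.6 TPM in sgMETTL16 (limma adjusted p = 0.0830). MRPL3, the counterpart of a bacterial protein near the catalytic centre, had 51.7, 35.9 and 81.5 TPM in sgMETTL16 (limma adjusted p = 0.149). Among members with high footprints in sgNS were MRPS17, at 54.1, 37.4 and 0 TPM in sgMETTL16, against 205 TPM in sgNS, and MRPL41, at 0, 36.2 and 0 TPM in sgMETTL16, against 198 TPM in sgNS.

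Translation efficiency, the footprint to input ratio, was tested by an interaction term, guide by library kind, in a fit of all 8 libraries. Of 8002 genes tested, 65 were called (0.812%), 47 of them higher in sgMETTL16 (0.587%), all of them listed at 0 in the footprints of sgNS or of all 3 sgMETTL16 cultures. Of 73 members tested, 1 was called, again MRPL51 (limma adjusted p = 0.0359). Its call rests on the same footprint values and is not a second observation. With the culture as a block, which pairs the input and footprint library of each culture, the limma adjusted p of MRPL51 was 0.241 and 0 genes were called. Without sgMETTL16-1, sgMETTL16-2 or sgMETTL16-3 the adjusted p from limma was 0.247, 0.0968 and 0.0920, and on TPM as deposited it was 0.0653. The other settings called from 0 to 6 members. The 6 came with a pseudocount of 0.1, beside 724 of 8002 genes, and with protein-coding genes only, beside 519 of 8373 genes.

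As sums over the 77 genes, footprint TPM was 2192, 2555 and 1316 in sgMETTL16, against 2331 in sgNS. The ratio of summed footprint to summed input TPM was 1.19, 1.303 and 0.90 in sgMETTL16, against 1.52 in sgNS, with all 3 sgMETTL16 ratios lower. Divided by the same ratio of all protein-coding genes it was 1.13, 1.22 and 1.51 in sgMETTL16, against 1.14 in sgNS, which lay within the sgMETTL16 range. The protein-coding ratio itself was 1.05, 1.07 and 0.594 in sgMETTL16, against 1.33 in sgNS. Protein-coding genes held 26.8%, 28.2% and 11.9% of footprint TPM in sgMETTL16, against 26.9% in sgNS, so the 1.51 of sgMETTL16-3 has a low denominator. For the large subunit the divided ratio was 1.11, 1.28 and 1.51 in sgMETTL16, against 0.957 in sgNS. For the small subunit it was 1.17, 1.09 and 1.53 in sgMETTL16, against 1.56 in sgNS, where MRPS17 alone held 205 of 981 footprint TPM. No direction common to both subunits was seen on that scale.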

How the data were processed

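Input RNA and ribosome footprints were measured in 4 cultures (sgMETTL16, n = 3; sgNS, n = 1). Per the submitters' processing notes, reads were processed with RSEM 1.2.31 and STAR on GRCh38, and the STAR version is not given in the sources used here. The values deposited by the authors are TPM per gene symbol. Of 26830 symbols, 23987 matched RefSeq (GRCh38.p14) by name and 1395 by an earlier name, leaving 1448 unmatched. Of the 77 genes, 76 matched by symbol and MRPS36 by its newer name.

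Tests used limma 3.58.1 in R 4.3.3 with an intensity trend on log2(TPM + 1), for genes with a mean of 1 TPM or more, adjusted by Benjamini-Hochberg at 0.05. Input libraries were centred on their median gene. Footprint libraries, and both kinds for translation efficiency, were scaled before the log by median-of-ratios factors, since the median footprint gene can be at 0. In the input fit the prior degrees of freedom were Inf, so the spread came from the trend. The sgMETTL16 cultures carry different guides, so the spread behind a p-value includes differences between guides. Input and footprint libraries of a culture are paired because they come from the same culture, and the blocked fit was an alternative. Other alternatives changed the pseudocount, filter, scaling, gene set and cultures. The input and footprint fits were also run on simulated data, without the median centring of the input. The translation efficiency fit was not. The simulated spread was drawn from the sgMETTL16 cultures, so whether sgNS varies like them was not tested.

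The members, the gene lists and the tests were chosen with earlier results of these data known. Genes named with values are METTL16, members past a threshold, the 8 highest and 8 lowest input changes, the 5 highest and 5 lowest input levels, members with footprints in all 4 libraries, the MRPS18 paralogs and genes of each list by smallest p. MRPL38, MRPL47, MRPS11, MRPS12, MRPS27, MRPS28, MRPL55, MRPL3 and the genes listed at 0 were named after their values were seen. Sequences are from RefSeq.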

Additional observations from a re-analysis of the deposited data

How the results depend on the processing

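In the input, TPM as deposited called 23 genes, and leaving out a sgMETTL16 culture gave 110 to 664 genes and 0 to 2 members. The median member change relative to the median gene was 0.14 without a filter and -0.21 to -0.04 leaving out a culture. The mean ratio of sgMETTL16 to sgNS in summed input was 1.14 in TPM and 0.965 as a share of protein-coding TPM. In the footprints, 335 genes were called at a mean of 5 TPM or more and 0 with median centring. Of 73 members tested there, 3 were called with a pseudocount of 0.1, beside 737 of 9297 genes. With protein-coding genes only 2 were called, beside 604 of 8826 genes. With protein-coding TPM rescaled to a fixed total (chosen after seeing the data) 2 were called, beside 582 of 8826 genes. On TPM as deposited 0 were called, beside 580 of 9297 genes, and with median centring 0 were called. Leaving out a culture gave 0 genes and 0 members in the footprint and translation efficiency comparisons. For translation efficiency, genes called were 724 and members 6 with a pseudocount of 0.1, 341 and 2 with 0.5, 519 and 6 with protein-coding genes only, 443 and 3 with that rescaling, 14 and 0 on TPM as deposited, 0 and 0 with median centring, and 0 and 0 with the replicate block. Genes called were 472 without a filter and 144 at a mean of 5 TPM or more.

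Of the named genes, 371 input values under an alternative kept their direction and side of the threshold, 3 became called, 9 lost their call (NDUFB8, NDUFS6 and RPS27, with the values in the text) and 18 changed sign relative to the median gene. None of the 18 was called. Without a filter MRPL22 was at 0.14, MRPL35 at 0.28, MRPS14 at 0.094, MRPS11 at 0.047, MRPS12 at 0.064 and MRPS18A at 0.22. MRPL35 was at 0.015 with a pseudocount of 0.1, 0.0042 with 0.5, -0.24 to 0.22 leaving out a culture, 0.0100 with protein-coding genes only and 0.029 with median-of-ratios scaling. Leaving out a culture, MRPS18A ranged from -0.20 to 0.018, MRPS18B from -0.040 to 0.18 and MRPS31 from -0.043 to 0.23. MRPS18B was at -0.023 with a pseudocount of 0.1, -0.024 with protein-coding genes only and -0.036 with median-of-ratios scaling. The cause of these changes was not tested. The adjusted p of MRPL51 across alternatives is given with its values, and the block changed no other member call. With unknown depth, a listed 0 in the footprints has no interval.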
